A study of Mus musculus with 12 samples.

Results

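Luminal cells of the mouse mammary gland at day 2 of lactation were compared with luminal cells of virgin mice, as 2 lactating against 2 virgin libraries out of 12 libraries in the series. The libraries were taken by their labels, and no measured value was used to choose them. All mice were untreated, wild-type FVB/N females, with 2 mice per stage, and their luminal and basal cells were parted by flow cytometry. Luminal cells of mice at day 18.5 of pregnancy (2 libraries) served to divide the net change into 2 steps. Basal cells of virgin and of lactating mice (2 libraries each) served to test whether the change differed between the cell types. The labels give neither ages, sort markers, time since birth in hours nor suckling. Luminal cells were run in lane 1 and basal cells in lane 2, by their run names, so cell type and lane cannot be told apart. The p-values measure the spread between 2 libraries per group, and how far that spread is technical was not tested.

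The mammary epithelium has an inner luminal layer and an outer basal layer that contracts to expel milk. In a virgin gland the luminal layer holds hormone-sensing cells, which carry oestrogen and progesterone receptors, and progenitor cells, and in lactation most of it is made up of secretory alveolar cells. These cells respond to prolactin through the transcription factor STAT5. They secrete caseins and whey proteins through the Golgi, release fat droplets wrapped in plasma membrane, and make lactose in the Golgi, which draws water into milk.

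The luminal libraries held 20392113 and 21708152 counts in virgin mice and 24723827 and 24657293 in lactating mice, within a range of 20015386 to 24723827 over all 12 libraries. Replicates correlated at 0.9914 (virgin) and 0.9887 (lactating) by Pearson's r of log2 CPM, taken across genes, and genes do not count as replicates. No pair of replicates agreed within sampling noise. Levels below are CPM (counts divided by the library total and set to a common scale) after TMM scaling, which corrects for the composition of a library, and they are given as replicate 1 and replicate 2. Changes are log2 changes from edgeR's quasi-likelihood fit. Their standard error (SE) is approximate, taken as the absolute change divided by the square root of the test's F statistic. "Rose" and "fell" are used only at a Benjamini-Hochberg adjusted p below 0.05 over 15969 genes tested.

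The luminal label was checked against defining markers. The luminal keratin gene Krt8 stood at 3002 and 3337 CPM in virgin and 1026 and 702 CPM in lactating luminal libraries, against 329 and 355 and 921 and 720.5 CPM in the basal libraries of the same stages. Epcam, an adhesion protein of epithelia, stood at 1994 and 1796 and then 1176 and 951 CPM. The basal keratin gene Krt14 stood at 16.7 and 33.7 CPM in virgin and 15.4 and 11.1 CPM in lactating luminal cells, against 3658 and 4418 and 4889 and 4052 CPM in basal cells. Luminal markers were therefore present and basal keratin low in all 4 libraries. In the lactating libraries Krt8 overlapped between luminal and basal cells, so it did not part them at that stage, whereas Krt14 did. Epcam was not set against basal cells here.

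Milk protein genes held most of the counts of lactating luminal libraries. The 5 caseins, whey proteins and other milk proteins listed for this comparison took up 2.34% and 2.20% of virgin libraries, 20.4% and 23.5% of pregnant libraries and 54.0% and 52.9% of lactating libraries, as a share of counts. After division by gene length, which turns counts into shares of transcripts, they held 2.95% and 2.82% in virgin and 69.2% and 68.5% in lactating libraries. Only 8 genes made up 50% of the counts in each lactating library, against 817 and 826 genes in the virgin libraries and 356 and 261 in the pregnant libraries. Those 8 were Csn1s2a, Csn2, Csn1s1, Glycam1, Wap, Trf, Csn3 and Spp1.

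**Figure D1:**
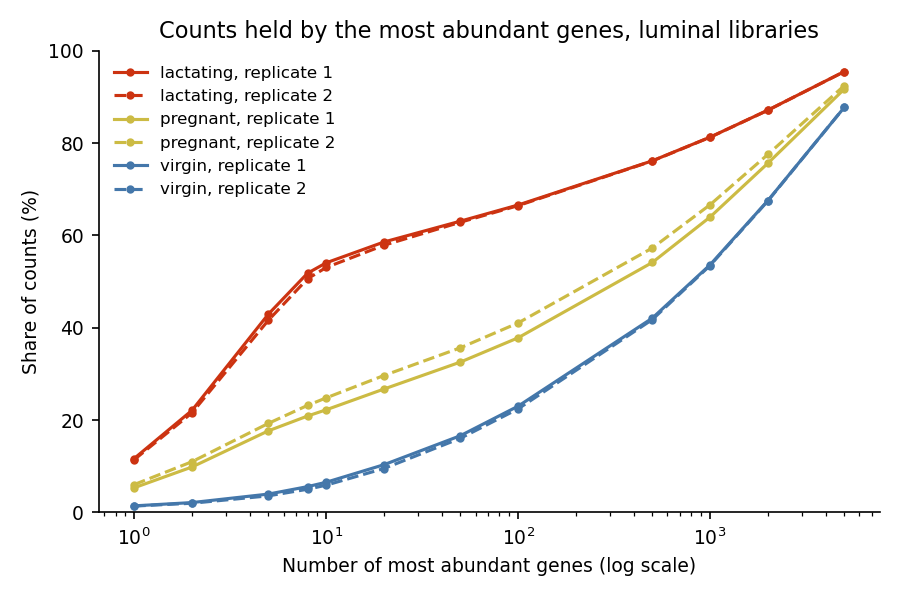
Share of a library's counts (vertical axis, percent) held by its most abundant genes, ranked by count (horizontal axis, log scale), with 1 line per luminal library. The 10 most abundant genes held 54.06% and 53.06% of the lactating libraries and 6.53% and 5.90% of the virgin libraries.

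The most abundant genes of virgin luminal cells were a different set. Its 10 leading genes were the mitochondrial genes COX1, COX3, CYTB and COX2, the iron carrier Trf, the mucin-like gene Fcgbp, the immediate early genes Fos and Fosb, the elongation factor Eef1a1 and Krt8. Fcgbp held 0.712% and 0.389% of the virgin counts and 0.00572% and 0.00361% of the lactating counts, and it fell by 5.52 (SE 0.34). Trf and COX1 stood among the leading 10 at both stages. Scd1, a desaturase gene of fat synthesis, held rank 10 in lactating cells with 1.08% and 1.20% of the counts.

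Of 15969 genes tested, 9609 (60.2%) differed between lactating and virgin luminal cells, with 4263 higher (26.7%) and 5346 lower (33.5%). A change of at least 2-fold was seen in 2199 of the higher and 3055 of the lower genes, and at least 32-fold in 154 and 279. The median change over all genes tested was -0.15. Scaling by library size alone, in which milk protein reads count in full, moved the median gene by a further -1.36, so it left 931 genes higher and 12496 lower. Rises below that shift turn to falls under it, and of the 26 gene lists below with a median above 0, 19 had a median below 0 under it. With the milk protein counts taken out of the library sizes, the median gene moved by -0.29, with 3087 higher and 7072 lower among the genes tested under it, and relative log expression factors gave 4642 higher and 4920 lower. Changes are therefore read against the TMM-scaled median gene, and the counts of a list against the 26.7% of all genes that rose and the 33.5% that fell.

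All 5 caseins, the micelle-forming proteins that carry milk calcium, rose, against 26.7% of all genes tested. Csn2, encoding beta-casein, stood at 542 and 864 CPM in virgin libraries, 44804 and 53657 in pregnant and 196873 and 189491 in lactating libraries, a net rise of 8.10 (SE 0.44) on the log2 scale (edgeR adjusted p = 1.23e-08). Csn1s2a stood at 442 and 518 and then 220725 and 213374 CPM and rose by 8.82 (SE 0.36). The virgin libraries thus already held casein transcripts, and no lactating value overlapped a virgin value. Csn1s1 rose by 6.73 (SE 0.36) and Csn3, encoding the kappa-casein of the micelle surface, by 4.95 (SE 0.24). Csn1s2b was low in both virgin (3.16 and 2.09 CPM) and pregnant libraries (13.9 and 22.9) and reached 6952 and 6854 CPM in lactation, a rise of 11.36 (SE 0.32). Its rise was 2.81 (SE 0.25) up to day 18.5 of pregnancy and 8.55 (SE 0.28) after that day. In Csn2 the larger step came first, with 6.13 (SE 0.40) and then 1.97 (SE 0.33).

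The caseins lie together on chromosome 5. In the RefSeq gene table of GRCm38.p6, 22 genes had their lower coordinate within 500 kb of that of Csn2 (chr5:87692619-87699429). Of these, 7 passed the filter on low counts, 15 did not pass it, and 8 had 0 counts in the 4 virgin and lactating luminal libraries. The 7 were the 5 caseins, the sulfotransferase gene Sult1d1 and Odam, which encodes a secreted protein of the enamel organ, and Sult1d1 and Odam are low in virgin cells and passed through the groups where they were high. Sult1d1, 138.0 kb from Csn2, stood at 0.287 and 0.371 and then 7.34 and 7.35 CPM and rose by 4.45 (SE 0.37). Odam lies between Csn1s2b and Csn3 and held 4 counts in virgin and 66 in lactating libraries, 36.1-fold (95% counting interval 13.5 to 136). Other neighbours stayed near 0. Sult1e1 held 1 and 1 counts in virgin and 1 and 6 in lactating libraries, and Smr3a and Cabs1 held 0 in all 4.

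**Figure D2:**
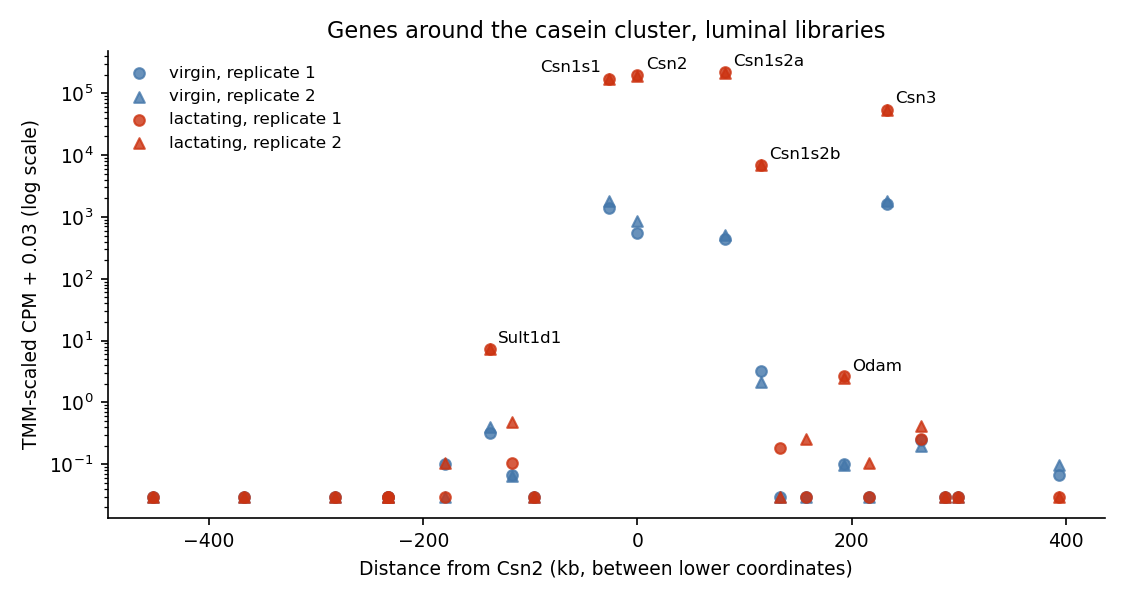
Level (vertical axis, TMM-scaled CPM plus 0.03, log scale) of the 22 genes within 500 kb of Csn2 against the distance of their lower coordinates from that of Csn2 (horizontal axis, kb), with 1 point per virgin or lactating luminal library. The 5 caseins are high among neighbours that lie near the floor, and Sult1d1 and Odam are the other 2 genes that rose.

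Promoters of milk protein genes are shown because STAT5 binds the interferon-gamma activated sequence (GAS), searched here as TTCNNNGAA, which reads alike on both strands. The 250 bases before each start were searched in RefSeq windows of GRCm38.p6, and 7.36% of 11947 genes tested with a window held a match. Among the 3 caseins with a window, Csn1s1 and Csn2 held one. Of 13 whey and other milk protein genes with a window 1 did, Glycam1. The 150 bases before the start follow, 5′ to 3′ on the gene's strand, with any GAS match in capitals, for Csn1s1 (chr5:87666058-87666207, plus strand), Csn2 (chr5:87699426-87699575, minus strand), Glycam1 (chr15:103565082-103565231, minus strand) and Wap (chr11:6638650-6638799, minus strand).
Csn1s1: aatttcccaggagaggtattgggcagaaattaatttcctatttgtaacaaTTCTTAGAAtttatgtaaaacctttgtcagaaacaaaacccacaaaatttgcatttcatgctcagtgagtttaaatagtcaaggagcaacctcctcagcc
Csn2: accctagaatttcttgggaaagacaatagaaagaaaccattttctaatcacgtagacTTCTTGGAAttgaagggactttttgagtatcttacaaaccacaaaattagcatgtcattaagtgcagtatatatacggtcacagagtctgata
Glycam1: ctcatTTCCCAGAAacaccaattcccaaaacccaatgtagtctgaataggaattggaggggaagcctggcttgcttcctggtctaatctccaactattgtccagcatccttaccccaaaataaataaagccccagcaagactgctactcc
Wap: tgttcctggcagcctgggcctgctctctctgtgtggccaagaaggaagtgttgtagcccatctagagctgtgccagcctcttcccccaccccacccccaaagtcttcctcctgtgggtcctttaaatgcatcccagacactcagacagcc
The match begins 100 bases before the start in Csn1s1, 93 in Csn2 and 145 in Glycam1. Wap, which also rose, has no match of these letters in its window. A match describes the letters only.

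Of the whey and other milk protein genes 14 of 15 tested rose and 0 fell, with a median change of 5.07. Under library size alone 12 rose and 3 fell. Glycam1, a mucin-type milk glycoprotein, stood at 52.6 and 55.0 CPM in virgin, then 13791 and 21128 in pregnant and 123996 and 113058 in lactating libraries, a rise of 11.10 (SE 0.32). Wap, the whey acidic protein gene, stood at 72.2 and 75.5, 4456 and 9853 and 97017 and 90838 CPM and rose by 10.31 (SE 0.44). The mean level of Glycam1 was 2202-fold and that of Wap 1272-fold that of virgin cells in the fit. Lalba encodes alpha-lactalbumin, the subunit that makes the Golgi galactosyltransferase produce lactose, and it went from 138 and 214 to 7702 and 7231 CPM. Its rise of 5.41 (SE 0.36) fell mostly in the second step (3.64 (SE 0.33)), and it had 409.8 and 785 CPM in pregnancy. Trf (transferrin), which shares 63.5% of its exon bases with other annotated genes, rose by 4.04 (SE 0.23), the bile salt-stimulated lipase gene Cel by 5.38 (SE 0.19) and the phosphoprotein gene Spp1 (osteopontin) by 5.18 (SE 0.23). Ltf, which encodes the iron-binding antimicrobial lactoferrin, had 1146 and 723 CPM in virgin, then 285 and 903 in pregnant and 4375 and 5473 in lactating libraries, a net rise of 2.4 (SE 0.45).

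Genes for immune defence in milk also stood high. Of 20 tested, 16 rose and 2 fell (median 2.37), against 11 and 8 under library size alone. Pigr, the receptor that carries IgA across the epithelium, went from 15.3 and 24.9 to 2182 and 2277 CPM, a rise of 6.79 (SE 0.32). Ccl28, a chemokine that draws IgA-secreting plasma cells, went from 0.896 and 0.979 to 21.5 and 16.6 CPM and rose by 4.33 (SE 0.30). Transport receptor and chemokine of the IgA system thus both rose. The milk peroxidase gene Lpo rose by 8.78 (SE 0.32), and Saa1, an acute-phase protein gene with a near-identical copy in Saa2 between which reads may be split, by 6.6 (SE 0.39). Saa3 held 8 counts in virgin libraries and was higher by 345-fold (95% counting interval 175 to 802). The 2 genes that fell, the complement gene C3 (-1.20 (SE 0.32)) and the mucin gene Muc4 (-0.87 (SE 0.15)), had first risen in pregnancy. C3 stood at 835 and 597, then 2526 and 2307 and then 416 and 208 CPM. Its net change was -0.76 and did not pass the test without lactating replicate 2 (edgeR adjusted p = 0.0785).

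Every one of the 15 genes for de novo fatty acid synthesis rose, with a median of 4.25. Scaled by library size alone, 11 rose and 2 fell. Fasn, the fatty acid synthase, went from 281 and 240.4 CPM in virgin to 9227 and 10512 CPM in lactating cells and rose by 5.24 (SE 0.20). Upstream of it, the citrate exporter Slc25a1 rose by 4.91 (SE 0.15), the citrate lyase Acly by 4.25 (SE 0.16) and the carboxylase Acaca, which makes malonyl-CoA, by 4.55 (SE 0.21). These 4 genes form 1 route from mitochondrial citrate to palmitate. Olah, the thioesterase that ends chain growth early and gives milk its medium-chain fatty acids, rose by 7.47 (SE 0.36). Thrsp, a regulator of lipogenesis, went from 1.76 and 3.95 to 1748 and 2248 CPM, a rise of 9.44 (SE 0.40). Srebf1, encoding the transcription factor of lipogenic genes, rose less, by 2.46 (SE 0.26), from 159 and 164 to 641 and 1129 CPM.

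Most genes of fatty acid elongation and desaturation rose as well (12 of 16 tested higher, 2 lower, median 1.72). With library size alone 8 were higher and 4 lower. The stearoyl-CoA desaturase Scd1 stood at 326 and 327, 2105 and 2267 and 20485 and 22459 CPM in the 3 stages and rose by 6.04 (SE 0.21). The delta-5 desaturase Fads1 rose by 3.99 (SE 0.15), the desaturase gene Scd2 by 3.73 (SE 0.27) and Elovl5, an elongase, by 3.91 (SE 0.12). Fads3 fell by 0.56 (SE 0.12). In the list of fatty acid uptake and triglyceride assembly 16 of 26 rose and 8 fell (median 1.68), against 12 and 11 under library size alone. The uptake genes moved most. Lpl, the lipoprotein lipase, went from 8.93 and 13 to 2948 and 3208 CPM (rise 8.13 (SE 0.25)), the fatty acid carrier Fabp3 from 2.44 and 3.04 to 2711 and 2977 CPM (rise 10.02 (SE 0.25)) and the scavenger receptor Cd36 from 20.5 and 28.4 to 2284 and 2119 CPM (rise 6.49 (SE 0.34)).

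The 2 enzymes that close triglyceride synthesis went opposite ways. Dgat1 rose by 1.89 (SE 0.13), from 17.2 and 17.1 to 59.3 and 68.0 CPM. Dgat2 fell by 3.14 (SE 0.16), from 33.9 and 34.1 CPM in virgin cells to 4.03 and 4.78 and then 4.20 and 3.49 CPM in pregnant and lactating cells. The phosphatidate phosphatase gene Lpin1 rose by 3.50 (SE 0.22), and at the first acylation step Gpam rose by 1.66 (SE 0.19) while Gpat3 fell by 3.25 (SE 0.28). Of the milk fat globule and lipid droplet genes 11 of 18 rose and 5 fell, with a median of 1.08 that was -0.28 under library size alone. Btn1a1 and Xdh, whose products join the droplet to the plasma membrane, rose by 3.83 (SE 0.19) and 4.35 (SE 0.28). The droplet-fusion gene Cidea went from 3.51 and 5.33 to 1342 and 1452 CPM and rose by 8.30 (SE 0.28). Plin2, the coat protein of the droplet, was highest at day 18.5 of pregnancy, with 196 and 309, 2681 and 3857 and 1409.7 and 1596 CPM and kept a net rise of 2.57 (SE 0.27).

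Of the genes of cholesterol synthesis more were called higher in the second step, from day 18.5 of pregnancy to day 2 of lactation, than in the first. Of 29 genes 24 rose and 3 fell (median 1.65), against 14 and 7 under library size alone. The list's median was 0.04 from virgin to pregnant and 1.67 from pregnant to lactating cells. In the first step 9 of the genes rose and 8 fell, and in the second 26 rose and 1 fell. Those 2 steps share the pregnant libraries, and their difference was not tested. Insig1, a sterol sensor that is itself a target of the sterol factors, went from 19.4 and 15.2 to 448 and 513 CPM and rose by 4.80 (SE 0.23). The cyclase Lss rose by 3.21 (SE 0.18), the farnesyl pyrophosphate synthase Fdps by 2.55 (SE 0.18) and the epoxidase Sqle by 1.4 (SE 0.14). Hmgcs1, the synthase at the entry of the pathway, rose by 1.30 (SE 0.15) (-0.06 under library size alone), from 63.6 and 50.4 to 150.3 and 131 CPM. The 3 that fell were the cholesterol exporters Abca1 (-2.30 (SE 0.17)) and Abcg1 (-1.10 (SE 0.27)) and Srebf2 (-0.51 (SE 0.12)), which encodes the factor that drives the pathway.

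The Hmgcs1 promoter is shown because sterol-regulated promoters pair a sterol regulatory element with a CCAAT box. The 150 bases before its start (chr13:119690201-119690350, plus strand, GRCm38.p6, 5′ to 3′) carry in capitals the core TCACNCCAC, which begins 137 bases before the start.
Hmgcs1: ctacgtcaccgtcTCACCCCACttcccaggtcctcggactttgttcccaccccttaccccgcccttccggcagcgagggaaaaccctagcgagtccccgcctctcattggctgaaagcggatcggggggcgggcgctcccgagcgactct
Among 20 genes of the cholesterol list with a window this was the 1 match, on either strand, against 1.21% of the genes tested with a window. The CCAAT box, searched as CCAAT on both strands, was found in 17 of the 20, against 39.88% of the genes tested with a window.

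Genes of lactose synthesis were mostly higher relative to the median gene. In this list 13 of 17 genes rose and 1 fell, with a median of 0.71 that was -0.65 under library size alone. B4galt1, the galactosyltransferase that lactalbumin redirects, went from 167 and 204 to 2095 and 2530.5 CPM and rose by 3.64 (SE 0.19). The UDP-galactose carrier Slc35a2 rose by 2.07 (SE 0.11) and Ugp2, which makes UDP-glucose, by 1.62 (SE 0.20). Hexokinase 2 (Hk2) rose by 1.70 (SE 0.12), while hexokinase 1 (Hk1) had 121 and 132 and 124 and 127 CPM and a change of -0.01 (SE 0.12).

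Genes of carbon metabolism rose broadly, relative to the median gene. In the list of glycolysis and the pentose phosphate pathway 15 of 20 rose and 1 fell (median 1.08, and -0.28 under library size alone). Aldoc, an aldolase, rose by 2.96 (SE 0.17), and Tkt, the transketolase of the route that makes NADPH, by 2.58 (SE 0.12). The phosphofructokinase Pfkp fell by 1.62 (SE 0.12). Of the genes of the TCA cycle and mitochondrial carriers 25 of 28 rose (median 1.20, and -0.16 under library size alone). The pyruvate carboxylase gene Pcx, which refills the cycle when citrate leaves it, went from 57.7 and 65.5 to 1525 and 1625 CPM, a rise of 4.68 (SE 0.18), and the pyruvate carrier Mpc1 rose by 3.37 (SE 0.13). Pdk4, the kinase that shuts off pyruvate dehydrogenase, was the 1 gene that fell, with 191 and 253, 571 and 1192 and 56.3 and 48.3 CPM in the 3 stages and a net change of -2.09 (SE 0.30).

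Nuclear genes for oxidative phosphorylation rose in 37 of 38, and the changes over the list ran from 0.31 to 2.03 (median 0.92, and -0.44 under library size alone). Ndufa1 of complex I rose by 2.03 (SE 0.10), from 29.4 and 29.2 to 118 and 122 CPM. The genes that control mitochondrial number showed no common direction, with 3 higher and 2 lower of 12. Ppargc1b and Esrra, a coactivator and a receptor that drive oxidative genes, rose by 2.65 (SE 0.26) and 1.79 (SE 0.13), whereas Twnk, the mitochondrial DNA helicase, fell by 1.10 (SE 0.21).

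Calcium and phosphate transport showed some of the steepest changes of the comparison. Atp2b2, the plasma membrane pump that moves calcium into milk, had 9 and 13 counts in virgin and 6688 and 8723 counts in lactating libraries, which is 0.323 and 0.439 against 511 and 661 CPM and a rise of 10.56 (SE 0.28). It stood at 2.82 and 4.29 CPM in late pregnancy, so most of the rise came after it (7.37 (SE 0.23)). The Golgi calcium pump Atp2c2 rose by 4.42 (SE 0.23), the calcium channel Orai1 by 3.17 (SE 0.14) and the phosphate carrier Slc34a2, from 9.61 and 12.3 to 1293 and 1588 CPM, by 7.04 (SE 0.23). Pthlh, the hormone that draws calcium from bone into milk, went from 0.287 and 0.540 in virgin and 0.403 and 0.345 in pregnant to 27.4 and 39.9 CPM in lactating cells, a rise of 6.32 (SE 0.34). In the whole list 11 of 20 rose and 7 fell (median 1.03, and -0.33 under library size alone), and Orai2 was among those that fell (-3.17 (SE 0.26)). Trpv6, another calcium channel, went from 66 counts to 1, which is lower by 30.2-fold (95% counting interval 5.23 to 1209).

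Metal transport followed. Of 23 genes 18 rose and 3 fell (median 0.93, and -0.43 under library size alone). Hephl1, a copper-dependent ferroxidase, had 8 and 10 counts in virgin and 4179 and 4532 in lactating libraries and rose by 10.02 (SE 0.30). Slc30a2, which loads zinc into secretory vesicles, rose from 3.16 and 2.50 to 202 and 201 CPM, by 6.16 (SE 0.17), and the metal importer Slc39a8 from 1.86 and 1.82 to 169 and 157 CPM, by 6.46 (SE 0.24). The transferrin receptor gene Tfrc rose by 2.82 (SE 0.18). Slc39a4, the zinc importer of the gut, peaked in pregnancy at 88.9 and 92.2 CPM and fell below the virgin level (8.39 and 7.60) to 5.35 and 3.56 CPM, a net change of -0.84 (SE 0.19) that was -0.55 without lactating replicate 2.

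Water and salt transport did not share this direction, with 5 genes higher and 7 lower of 16. The water channels Aqp5 and Aqp1 fell (log2 changes -1.57 (SE 0.21) and -2.42 (SE 0.30)), the chloride importer Slc12a2 fell by 1.63 (SE 0.20) and Slc4a4, a bicarbonate carrier, held 5 counts in lactating libraries. Scnn1g, a subunit of the epithelial sodium channel, rose by 2.11 (SE 0.39). The changes over the list ran from -4.73 to 5.25, so Scnn1g was not its largest rise. The iodide carrier Slc5a5, which concentrates iodide in milk, had 56.2 and 254 CPM in virgin and 126 and 158 CPM in lactating libraries. The virgin replicates lay apart and the groups overlapped, and the change was -0.13 (SE 0.47).

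Amino acid supply changed by carrier rather than as a group (10 of 21 higher, 6 lower, median 0.40, and -0.96 under library size alone). Slc7a5, the large neutral amino acid carrier, rose by 2.56 (SE 0.11) and Slc38a3, a glutamine carrier, from 1.86 and 1.79 to 49.0 and 66.2 CPM, by 4.98 (SE 0.37). The glutamate carrier Slc1a3 had 0.143 and 0.236 and then 39.6 and 34.7 CPM and rose by 7.56 (SE 0.25). The neutral carriers Slc1a5 and Slc38a1 fell (log2 changes -2.38 (SE 0.17) and -2.85 (SE 0.29)), so carriers of overlapping substrates moved in opposite directions. In the list of the ATF4 response to amino acid shortage 12 of 24 rose and 4 fell (median 0.37, and -0.99 under library size alone). Asns, the asparagine synthetase, rose by 2.44 (SE 0.11) and Iars, a transfer RNA synthetase, by 1.60 (SE 0.14). Atf4 itself fell by 0.38 (SE 0.10) and its stress partner Ddit3 had 13.6 and 15.5 and 17.0 and 14.1 CPM, a change of 0.10 (SE 0.20). The fall of Atf4 did not pass the test without lactating replicate 2 (-0.32, edgeR adjusted p = 0.0659).

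Most genes of the secretory path rose relative to the median gene. 33 of 37 genes of the endoplasmic reticulum rose and 1 fell (median 1.08, and -0.28 under library size alone). Xbp1, a factor that expands the secretory apparatus, went from 132 and 168 to 1135 and 1273 CPM and rose by 3.0 (SE 0.16). The signal peptidase subunit Sec11c rose by 3.35 (SE 0.10) and the translocon gene Sec61a1 by 1.61 (SE 0.12). Ern1, the sensor that activates XBP1, fell by 1.09 (SE 0.14). Of the Golgi and vesicle genes 22 of 33 rose and 5 fell (median 0.61, and -0.75 under library size alone). Fam20c, the Golgi kinase that phosphorylates caseins, went from 20 and 21.6 to 284 and 355 CPM, a rise of 3.94 (SE 0.20), and the coat genes Sec23b and Sec24d rose by 2.11 (SE 0.12) and 1.86 (SE 0.12). Bhlha15, a transcription factor of secretory cells, rose by 5.07 (SE 0.20), from 2.4 and 3.11 to 95.9 and 89.6 CPM.

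Ribosomal protein genes moved against the secretory path. Of 35 cytosolic ribosomal protein genes 31 fell and 0 rose, with a median of -0.60. The list's median was 0.01 from virgin to pregnant and -0.63 from pregnant to lactating cells, 2 steps that share the pregnant libraries. Rps27 fell by 1.38 (SE 0.18) and Rps3 fell by 0.88 (SE 0.12), from 1115 and 1089 through 1111 and 1121 to 613 and 584 CPM. The elongation factors Eef1a1 and Eef2 fell (log2 changes -0.65 (SE 0.13) and -0.46 (SE 0.13)), the latter missing the test without lactating replicate 1 (-0.43, edgeR adjusted p = 0.0522). Eef2k, the kinase that slows elongation, rose by 2.95 (SE 0.09). Deptor, an inhibitor of the growth kinase mTOR, rose by 3.16 (SE 0.17) and Akt1, a kinase upstream of it, by 1.66 (SE 0.11). In the whole list of translation factors and mTOR 14 of 28 rose and 8 fell, against 26.7% and 33.5% of all genes. Its median was 0.24, and -1.12 under library size alone, so the list did not share the fall of the ribosomal protein genes after TMM scaling.

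**Figure D3:**
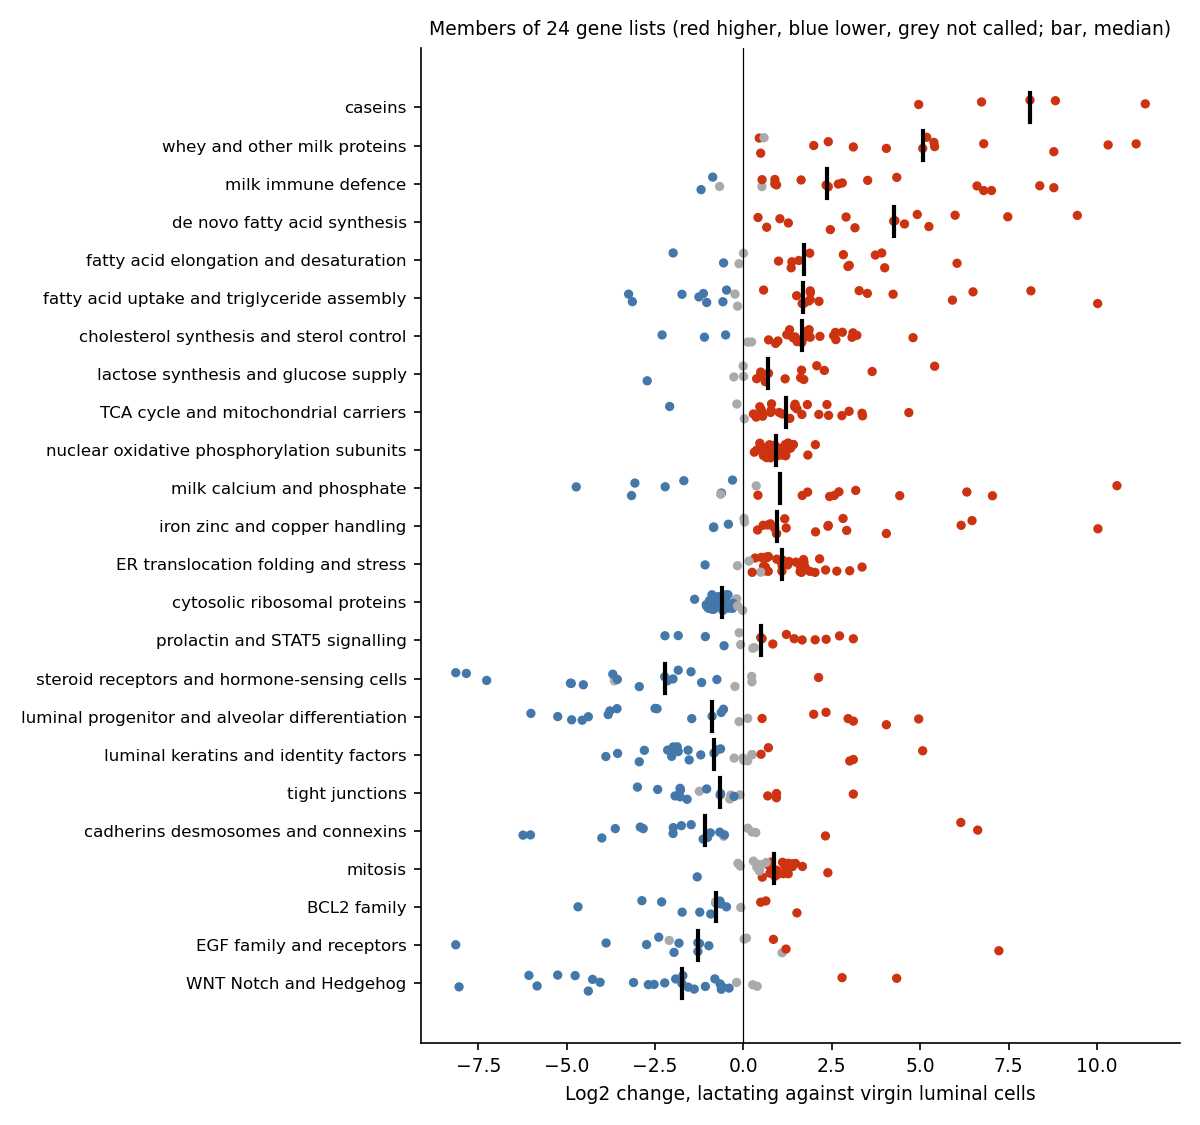
Log2 change from virgin to lactating luminal cells (horizontal axis) of every tested member of 24 gene lists, with 1 point per gene and a bar at each list's median. All 15 genes of fatty acid synthesis lie above 0, and the hormone-sensing genes and the genes of WNT, Notch and Hedgehog signalling lie mostly below it.

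Genes that carry the prolactin signal changed unequally (10 of 18 higher, 4 lower, median 0.51, and -0.85 under library size alone). The receptor gene Prlr fell by 1.85 (SE 0.17), with 1126 and 1024 CPM in virgin, then 98.5 and 111 in pregnant and 293 and 305 in lactating libraries. It fell by 3.36 (SE 0.19) in pregnancy and then rose again by 1.52 (SE 0.17). Elf5, the factor that specifies alveolar cells, went from 131 and 140.3 to 1079 and 1255 CPM and rose by 3.11 (SE 0.18). Stat5a rose by 1.43 (SE 0.14) and the glucocorticoid receptor gene Nr3c1 by 2.34 (SE 0.13). Of the STAT5 feedback genes, Socs2 had 24.7 and 24.4 and 24.7 and 21.8 CPM with a change of -0.08 (SE 0.18), and Socs1 fell by 2.22 (SE 0.21). Tnfrsf11a, which encodes the receptor RANK, rose by 2.72 (SE 0.16).

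Genes of hormone-sensing luminal cells fell, with 16 of 21 lower, 1 higher and a median of -2.23. Areg, the growth factor that relays the oestrogen signal to neighbouring cells, had 509.8 and 565 CPM in virgin, then 14.6 and 7.20 in pregnant and 2.06 and 1.74 in lactating libraries, a change of -8.14 (SE 0.35) (edgeR adjusted p = 2.15e-09). Tnfsf11, encoding the RANK ligand that relays the progesterone signal, went from 1065 counts in virgin to 2 in lactating libraries, lower by 243-fold (95% counting interval 67.2 to 2012). Transcripts of both relay signals were thus close to 0 in lactation. The pregnant libraries disagreed on Tnfsf11, with 23.8 and 0.690 CPM. The progesterone receptor gene Pgr fell from 72.9 and 112 to 3.36 and 2.95 CPM, a change of -4.87 (SE 0.21), and its target Wnt4 fell by 2.23 (SE 0.20). Foxa1, which opens chromatin for the oestrogen receptor, fell by 2.95 (SE 0.14), Prom1 fell by 3.57 (SE 0.27) and Tbx3 fell by 3.70 (SE 0.24). In sorted populations, fewer cells of a type and less RNA per cell cannot be told apart.

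Within this list some genes came back in the second step. The oestrogen receptor gene Esr1 had 64.9 and 51.5, then 8.73 and 8.28 and then 33.1 and 36.0 CPM, so it fell by 2.77 (SE 0.23) in pregnancy, which was followed by a rise of 2.02 (SE 0.23), and the net change was -0.75 (SE 0.21). That net fall did not pass the test without virgin replicate 1 (-0.58, edgeR adjusted p = 0.0702) or without lactating replicate 1 (-0.66, edgeR adjusted p = 0.0633). Cited1, a co-regulator of the receptor, followed the same course with 211 and 193, 7.03 and 8.28 and 99.0 and 78.6 CPM. Ly6a, encoding the surface antigen SCA1, stood at 135 and 107, 10.3 and 14.3 and 105 and 99.55 CPM, and its net change of -0.24 (SE 0.17) did not pass the test. Pgr did not return: its second step was a further fall from 6.81 and 6.11 to 3.36 and 2.95 CPM. Gata3, the luminal lineage factor, had 104 and 119 and 125 and 138 CPM and a change of 0.24 (SE 0.16).

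In the list of luminal progenitor and alveolar differentiation genes 14 of 23 fell and 7 rose. Kit, the receptor that marks luminal progenitors, went from 275 and 233 in virgin and 149 and 291 in pregnant to 19.3 and 17.7 CPM in lactating cells, a change of -3.78 (SE 0.26). Aldh1a3, a retinaldehyde dehydrogenase of these cells, fell by 3.58 (SE 0.28) and the integrin gene Itga2, from 38.1 and 36.3 to 0.688 and 0.455 CPM, a change of -6.01 (SE 0.31). The members of the list that rose included Csn3 and Trf, which are milk protein genes. Rspo1, a secreted enhancer of WNT signalling, rose in pregnancy from 90.6 and 64.2 to 403 and 274 CPM and then dropped to 3.82 and 3.56 CPM, a net change of -4.39 (SE 0.35). The progenitor factor Sox10 had 177 and 189 and 161 and 175 CPM and a change of -0.12 (SE 0.13).

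Luminal keratins and identity factors fell in 16 of 27 and rose in 5. The keratin genes Krt8, Krt18 and Krt19 fell (log2 changes -1.88 (SE 0.19), -2.14 (SE 0.16) and -1.94 (SE 0.15)), and Krt7 fell by 3.56 (SE 0.38), from 315 and 368 to 31.1 and 26.8 CPM. The adhesion gene Epcam fell by 0.83 (SE 0.17). Krt8 was nonetheless among the more abundant genes of lactating cells, at 1026 and 702 CPM. Krt6a, another keratin gene, had 84.1 and 116 CPM in virgin and 0.841 and 0.530 in lactating libraries and fell by 7.18 (SE 0.32). Of the factors, Myb fell by 3.89 (SE 0.40), Runx1 fell by 1.54 (SE 0.14) and Elf3 fell by 1.21 (SE 0.19), whereas Elf5 and Bhlha15 rose as given above.

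Transcripts of most cell contact genes were lower in lactating cells, with single members much higher. The contacts themselves were not measured. Among tight junction genes 11 of 19 fell and 4 rose. Cldn4 was highest in pregnancy, with 1737 and 2093, 2594 and 3770.0 and 443 and 269.6 CPM, and had a net change of -2.43 (SE 0.24). Cldn3 fell by 1.79 (SE 0.15) and Cldn23 fell by 3.0 (SE 0.23). Cldn8, a claudin that seals against sodium, went the other way, from 34.0 and 28.4 to 270.2 and 267 CPM, a rise of 3.11 (SE 0.20). Among cadherins, desmosomes and connexins 15 of 22 fell and 3 rose, and all 3 that rose were gap junction genes. Gjb1 went from 0.502 and 0.371 to 41.0 and 45.8 CPM (rise 6.62 (SE 0.28)), Gjb6 from 0.574 and 0.743 to 47.2 and 47.1 CPM (rise 6.15 (SE 0.21)) and Gjb2 from 34.3 and 30.1 to 161 and 160.5 CPM (rise 2.32 (SE 0.24)). The desmosomal plaque gene Dsp fell by 3.63 (SE 0.22) and E-cadherin (Cdh1) fell by 1.98 (SE 0.15), from 578 and 641 through 633 and 685 to 164 and 144 CPM.

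Mitosis genes were higher in lactating than in virgin luminal cells after TMM scaling, though not under library size alone. Of 30 mitosis genes 21 rose and 1 fell, with a median of 0.85 that was -0.51 under library size alone. Mki67, the proliferation antigen, had 62.8 and 66.6 CPM in virgin, then 80.0 and 55.6 in pregnant and 358 and 318 in lactating libraries, a net rise of 2.39 (SE 0.19). The cyclin gene Ccnb1 rose by 1.67 (SE 0.29), from 3.94 and 5.13 to 17.3 and 11.6 CPM, and Plk1 by 1.38 (SE 0.28). The median was -0.30 in the first step and 1.18 in the second, which share the pregnant libraries. The mitotic kinesin Kif23 fell by 1.31 (SE 0.23). In the DNA replication list 10 of 30 rose and 3 fell, and the share that rose (33.3%) was near the 26.7% of all genes (median 0.33, and -1.03 under library size alone). Rrm2, the subunit that makes deoxynucleotides, rose by 2.07 (SE 0.19) and the flap nuclease Fen1 by 2.86 (SE 0.21). In the annotation 84.2% of the exon bases of Fen1 lie over exons of other genes, on the antisense strand among them, so its reads may be shared. The helicase gene Mcm2 had 50.5 and 42.4 and 48.1 and 55.1 CPM and a change of 0.15 (SE 0.26).

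A promoter of the mitosis list is shown because NF-Y binds repeated CCAAT boxes in mitotic genes. The 150 bases before the start of the cyclin gene Ccnb2 (chr9:70421555-70421704, minus strand, GRCm38.p6, 5′ to 3′) hold 3 CCAAT boxes, in capitals, which begin 87, 54 and 21 bases before the start.
Ccnb2: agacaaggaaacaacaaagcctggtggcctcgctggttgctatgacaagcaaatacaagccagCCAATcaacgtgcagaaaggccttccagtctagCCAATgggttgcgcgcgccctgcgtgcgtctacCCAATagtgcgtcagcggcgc
CCAAT was found, on either strand, in the 250 bases before the start of 20 of 25 mitosis genes with a window, against 39.88% of the genes tested with a window. The cell cycle homology element, searched as TTTGAA on both strands, was found in 10 of the 25, against 13.11%, and the 2 motifs do not overlap in their letters. Ccnb2 was chosen for its repeats after the sequences were seen.

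Regulators of the G1 phase showed no common direction (8 higher and 7 lower of 28). Trp53 fell by 1.95 (SE 0.21), from 66.1 and 68.3 to 17.5 and 17.3 CPM, and the kinase gene Cdk4 fell by 1.51 (SE 0.14). Ccnd1, the cyclin required for alveolar growth, had 323 and 252 and 237 and 223 CPM and a change of -0.32 (SE 0.23). In the BCL2 family 10 of 15 fell and 3 rose. Bcl2 fell by 4.68 (SE 0.22), from 38.2 and 28.4 to 1.30 and 1.29 CPM, and Mcl1, the most abundant survival gene of the family here, fell by 0.48 (SE 0.13), from 934 and 867 to 703 and 588 CPM. Without lactating replicate 2 the fall of Mcl1 did not pass the test (-0.33, edgeR adjusted p = 0.095). Bcl2l2 rose by 1.51 (SE 0.11). The death-promoting genes Bcl2l11 and Bik fell (log2 changes -2.31 (SE 0.14) and -2.87 (SE 0.21)), so members of opposite function fell together.

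EGF family genes fell in 10 of 17 and rose in 3, and the ligands changed places. Egf itself, a growth factor secreted into milk, had 0.502 and 0.574 CPM in virgin, then 1.70 and 2.27 in pregnant and 81.4 and 81.1 in lactating cells and rose by 7.22 (SE 0.19). Areg, the leading ligand of virgin cells, fell as given above, and so did Btc (-3.89 (SE 0.32)), Tgfa (-2.4 (SE 0.27)) and Hbegf (-1.29 (SE 0.22)). Among the receptors Erbb3 fell by 1.29 (SE 0.16) and Egfr fell by 0.98 (SE 0.15), and Erbb4 had 5.16 and 5.74 and 7.18 and 3.86 CPM and a change of 0.02 (SE 0.28). Of the RANK ligand and NF-kappaB genes 4 rose and 7 fell of 15. The decoy receptor gene Tnfrsf11b rose by 4.99 (SE 0.51) from 0.0717 and 0.304 to 6.80 and 5.68 CPM, and the NF-kappaB inhibitor Nfkbie fell by 3.01 (SE 0.28).

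WNT, Notch and Hedgehog signalling fell in 23 of 28 genes, with a median of -1.73. The ligand Wnt7b went from 58.7 and 53.0 to 1.83 and 2.27 CPM, a change of -4.76 (SE 0.34), and the WNT target Axin2 held 153 counts in virgin and 8 in lactating libraries, lower by 8.74-fold (95% counting interval 4.33 to 20.6). The Notch targets Hey1 and Hes1 fell (log2 changes -5.25 (SE 0.40) and -1.74 (SE 0.20)), and Heyl was lower by 68.6-fold (95% counting interval 33.2 to 171). Gli2, a Hedgehog factor with 82 counts in virgin and 0 in lactating libraries, was at least 12.5-fold lower against a floor of 3 counts over the group. The 2 genes that rose were Sfrp1, a secreted WNT inhibitor, from 11.4 and 9.32 to 193 and 223 CPM (rise 4.33 (SE 0.31)), and the R-spondin receptor Lgr4 (rise 2.79 (SE 0.18)).

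The next list held TGF-beta and STAT3 factors linked to involution, the regression of the gland after weaning. In it 14 of 25 fell (56%, against 33.5% of all genes) and 6 rose (24%, against 26.7%). The largest rise was 1.59, and the genes named below are all falls. Lif, the cytokine that activates STAT3 at weaning, fell from 508 and 513 to 79.6 and 53.9 CPM, a change of -2.94 (SE 0.24), and the oncostatin receptor Osmr from 261 and 251 to 13.1 and 12.5 CPM, a change of -4.32 (SE 0.28). Igfbp5 fell by 1.46 (SE 0.23) and the IGF receptor Igf1r fell by 4.66 (SE 0.31). Stat3 fell less, fell by 0.73 (SE 0.14). Id3 had 70.3 and 69.5 and 2.06 and 2.12 CPM and fell by 5.06 (SE 0.17). Inhba, the activin subunit, was at least 17.8-fold lower, with 117 counts in virgin and 0 in lactating libraries, on the same floor.

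Serotonin is a local brake on milk secretion in the gland. Tph1, its synthesizing enzyme, dipped in pregnancy and returned, with 119 and 134, 14.9 and 24.5 and 124 and 106 CPM and a net change of -0.14 (SE 0.18). The degrading enzyme Maob, with 138 counts in virgin and 0 in lactating libraries, was at least 21.0-fold lower. No serotonin gene of 7 tested rose and 3 fell. In the clock list 6 rose and 5 fell of 18. Rora and Hlf rose by 2.84 (SE 0.12) and 3.74 (SE 0.17), and the repressors Bhlhe41 and Per2 fell (log2 changes -3.87 (SE 0.17) and -1.70 (SE 0.16)). Arntl, encoding the core factor BMAL1, rose by 1.46 (SE 0.14), whereas its repressor Nr1d1 had 85.7 and 74.1 and 96.6 and 71.9 CPM and a change of 0.08 (SE 0.17). The hour of collection is not given in the labels, and its part in these values was not tested. Immediate early genes, which cell isolation can induce, fell in 11 and rose in 3 of 21. Fos had 4009.7 and 3557 and 2153 and 3337 CPM and a change of -0.46 (SE 0.28). The heat shock genes Hspb1 and Hspa1a fell (log2 changes -4.25 (SE 0.26) and -2.09 (SE 0.25)), the latter with a near-identical copy, Hspa1b, that may share its reads.

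Chemokines of the epithelium moved both ways, with 8 higher and 7 lower of 16 (median 0.76, and -0.59 under library size alone). Cxcl1, which attracts neutrophils, rose by 1.86 (SE 0.23), from 400.0 and 308 to 1277 and 1299 CPM, and Ccl20 by 3.83 (SE 0.46). The alarmin gene Il33 fell from 34.2 and 68.1 to 0.306 and 0.455 CPM, a change of -7.05 (SE 0.51), and Cxcl15, a chemokine known from lung, fell by 3.01 (SE 0.34). Csf1 rose to 352 and 523 CPM in pregnancy from 95.7 and 76.2 and dropped to 37.1 and 35.4 CPM, a net change of -1.24 (SE 0.23). Antigen presentation and interferon genes showed no common direction (7 higher and 5 lower of 27, median 0.06, and -1.30 under library size alone), with a rise of 2.72 (SE 0.20) in the GTPase gene Gbp3. Among enzymes and other secreted factors, Odc1, the first enzyme of polyamine synthesis, rose by 2.75 (SE 0.20) and the fibrinogen gene Fgb fell from 73.3 and 97.6 to 0.688 and 1.59 CPM, a change of -6.22 (SE 0.28). Ido1, which degrades tryptophan, held 1136 counts in virgin and 3 in lactating libraries and was lower by 173-fold (95% counting interval 59.1 to 840.5). The arginase gene Arg1 fell by 2.72 (SE 0.17) and the hormone gene Stc2 fell by 3.19 (SE 0.12). Of the matrix proteases and inhibitors 5 rose and 9 fell of 20, which is 25% and 45% against 26.7% and 33.5% of all genes. The plasminogen activator Plau fell by 2.76 (SE 0.27), and the cathepsin gene Ctsb had 475 and 534 and 914 and 870.4 CPM.

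**Figure D4:**
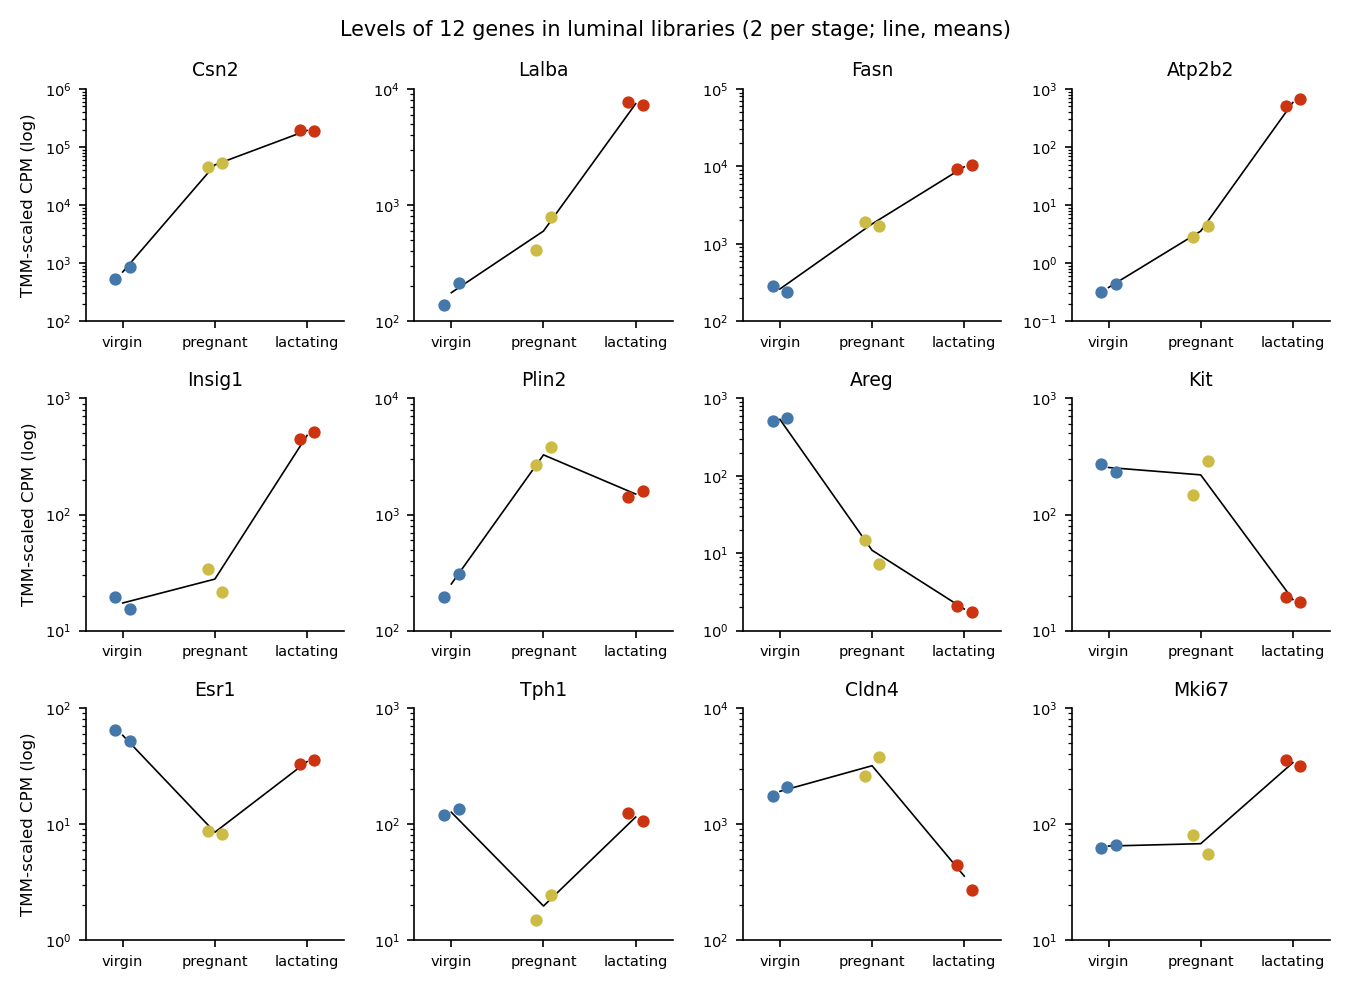
Level (vertical axis, TMM-scaled CPM, log scale) of 12 genes in each luminal library at the 3 stages (horizontal axis), with 1 point per library and a line through the group means. Csn2 and Fasn climb at each step, Atp2b2 and Insig1 climb mostly after day 18.5 of pregnancy, Areg and Kit fall, and Esr1 and Tph1 dip in pregnancy and return in part or in full.

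Markers of other cells of the gland were summed in each library. The basal and myoepithelial markers summed to 497 and 543 CPM in virgin and 831 and 949.9 CPM in lactating luminal libraries, against 24748 and 24832 CPM in virgin basal libraries. Of the 18, 8 rose and 6 fell (median 0.63, and -0.72 under library size alone). Itga6, which luminal cells also express, made up most of the lactating sum, with 546 and 641 CPM, while Krt5 stood at 7.80 and 6.67 CPM. The fibroblast markers summed to 459 and 449 and then 177 and 163 CPM, with 5 higher and 4 lower of 12 (median 0.16, and -1.19 under library size alone). The endothelial markers fell in 10 of 13, from 148 and 189 to 72.3 and 71.8 CPM, and the pericyte markers in 2 of 7, from 158 and 168 to 100.04 and 111 CPM. The sums of leukocyte markers were 11.9 and 11.4 and then 10.2 and 8.94 CPM, with 2 higher and 2 lower of 9, and the B cell marker Ms4a1 at 0 in all 4 libraries. The pan-leukocyte gene Ptprc went from 0.287 and 0.135 to 0.688 and 0.833 CPM, a change of 1.84 (SE 0.57), and the T cell gene Cd3e from 0.0359 and 0.304 to 2.60 and 3.11 CPM, a change of 4.0 (SE 0.55), both called higher. The B cell gene Cd79a went from 0.753 and 0.608 to 0.229 and 0.0758 CPM, a change of -2.12 (SE 0.76), and the macrophage gene Cd68 from 7.28 and 7.63 to 3.59 and 3.33 CPM, a change of -1.11 (SE 0.17), both called lower. The call of Ptprc ended without virgin replicate 2 (1.39) or lactating replicate 2 (1.72), and that of Cd79a without virgin replicate 1 (-1.96), lactating replicate 1 (-3.05) or lactating replicate 2 (-1.52). The change of Cd3e was 6.11 without virgin replicate 2, which leaves 1 virgin count. Adipocyte markers summed to 73.9 and 110.2 and 46.2 and 45.5 CPM, with 0 higher and 2 lower of 5, and erythroid markers to 22.8 and 14.9 and 1.60 and 1.52 CPM, with 3 of 5 lower. Their part in the falls given above was not tested.

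The largest rises outside the lists included those of enzymes and transporters. Gldc, the glycine decarboxylase, went from 0.645 and 0.844 to 585 and 564 CPM and rose by 9.58 (SE 0.26). Lao1, an L-amino acid oxidase of milk that yields hydrogen peroxide, went from 12.7 and 26.2 to 14556 and 14661 CPM and rose by 9.55 (SE 0.43). The carbonic anhydrase Car4 rose by 9.33 (SE 0.43), from 0.215 and 0.304 to 208 and 134 CPM, the sodium-proton exchanger Slc9a4 by 8.97 (SE 0.44) and Wfdc17, of the whey acidic protein family of domains, by 8.83 (SE 0.56). These 5 stood among the 12 largest rises of genes with at least 10 counts in the lower and 10 CPM in the higher group, beside Csn1s2b, Glycam1, Atp2b2, Wap, Hephl1, Fabp3 and Thrsp. Among genes with 0 counts in both virgin libraries, Plpp4, a lipid phosphatase, had 253 and 182 counts in the lactating libraries and was at least 318-fold higher against a floor of 3 counts over the group. Umodl1, with 76 and 94 counts, was at least 124-fold higher, and the transcripts 1700042G15Rik and 2810032G03Rik at least 163 and 83.8-fold.

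Among genes with at least 10 counts in lactating and 10 CPM in virgin libraries, the 12 largest falls held Areg, Krt6a, Il33 and Fgb, given above, and genes of other functions. Ptn, a heparin-binding growth factor, went from 1073 and 1231 CPM in virgin to 2.73 and 2.42 in pregnant and 8.03 and 6.97 in lactating cells, a change of -7.26 (SE 0.15) (edgeR adjusted p = 3.09e-11). The mechanosensitive channel Piezo2 fell by 6.82 (SE 0.29), from 83.9 and 89.7 to 0.841 and 0.682 CPM. The lipoxygenase Alox12e fell by 6.68 (SE 0.36). The proton pump subunit Atp6v1b1 fell from 228 and 334 to 3.75 and 4.02 CPM, a change of -6.18 (SE 0.27), the proteoglycan gene Esm1 fell by 6.20 (SE 0.27), the phosphatase Ptprz1, a receptor for pleiotrophin, fell by 6.06 (SE 0.57) and 9530053A07Rik fell by 6.21 (SE 0.42). Among genes with 0 counts in both lactating libraries, R3hdml was at least 273-fold lower, from 788 and 1006 counts, the mucin-like gene Dmbt1 at least 225-fold, the protocadherin Pcdhac2 at least 111-fold and Fzd10os at least 35.1-fold, on the same floor.

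The net change was split at day 18.5 of pregnancy. From virgin to pregnant cells 7335 genes (45.9%) differed, with 3488 higher and 3847 lower, and from pregnant to lactating cells 7716 (48.3%), with 3781 higher and 3935 lower. The 2 steps share the pregnant libraries, so their values are given side by side only. Fabp3 rose by 8.29 (SE 0.24) in the first step and 1.73 (SE 0.17) in the second, and Glycam1 by 8.34 (SE 0.29) and 2.76 (SE 0.22). In Slc39a8 and Car4 the larger step came second. Slc39a8 stood at 1.21 and 2.42 CPM in pregnancy and rose by 6.50 (SE 0.25) in the second step, and Car4 rose by 6.05 (SE 0.34) after 3.28 (SE 0.58). Among falls, Ptn fell by 8.80 (SE 0.16) and then rose by 1.54 (SE 0.16), and Kit fell by 3.57 (SE 0.26) in the second step. The genes with the largest opposite steps and no net call, chosen by the size of both steps, were low in count. Calml3, a calmodulin-like gene, stood at 0.215 and 0.371, 12.6 and 7.69 and 0.382 and 0.152 CPM, and Lcn8 at 0 in the 4 virgin and lactating libraries and 0.538 and 0.592 CPM in pregnancy. Acan and Rbm11 had 0 counts in both pregnant libraries and at most 0.530 CPM in any other luminal library.

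The lactation change was set against that of basal cells, which asked whether luminal cells changed differently. The difference of the 2 changes, luminal minus basal, was called for 7875 genes (49.3% of those tested), 3681 higher and 4194 lower. Basal cells on their own changed in 7579 genes (47.5%). All 5 caseins rose more in luminal cells (23.1% of genes tested gave a higher difference), although they also rose in the basal libraries. Their sum in lactating libraries was 3675 and 3411 CPM in basal against 651526 and 633482 CPM in luminal libraries. Whether the basal reads stem from basal cells or from luminal RNA in the basal sort was not tested. Csn2 rose by 6.34 (SE 0.41) in the basal libraries, from 7.93 and 16.8 to 1003 and 999.7 CPM, and its luminal rise was larger by 1.76 (SE 0.47). Of the genes of fat synthesis 12 of 15 were higher in the difference, against 23.1% of all genes, and 0 were lower. Fasn had 339 and 276 CPM in virgin and 266 and 239.6 in lactating basal libraries, and the luminal change exceeded the basal one by 5.53 (SE 0.25). Cd36 and Acly gave differences of 6.73 (SE 0.42) and 4.64 (SE 0.21).

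Of the mitosis genes, 21 rose in luminal cells after TMM scaling and 30 of 30 fell in basal cells, where 23.7% of all genes fell. All 30 gave a called higher luminal than basal change, with list medians of 0.85 in luminal and -2.17 in basal cells. Mki67 fell by 1.37 (SE 0.20) in basal cells, from 47.8 and 48.9 to 22.5 and 14.9 CPM, against its luminal rise, a difference of 3.76 (SE 0.27). Ccnb1 gave a difference of 4.34 (SE 0.48) and Rrm2 of 3.72 (SE 0.27). Endoplasmic reticulum genes were also higher in the difference in 34 of 37, and Xbp1 gave 3.42 (SE 0.21). The opposite pattern, a luminal fall beside a basal rise, was seen in keratins: Krt7 rose by 1.70 (SE 0.37) and Krt19 by 2.26 (SE 0.16) in basal cells, against luminal falls of -3.56 (SE 0.38) and -1.94 (SE 0.15). Pgr rose by 1.05 (SE 0.17) and Wnt4 by 2.94 (SE 0.22) in basal cells while both fell in luminal cells. Of the 35 ribosomal protein genes 31 fell in luminal cells and 33 in basal cells, with medians of -0.60 and -0.74, and 8 gave a called difference, against 49.3% of all genes. The luminal and basal libraries were run in separate lanes.

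**Figure D5:**
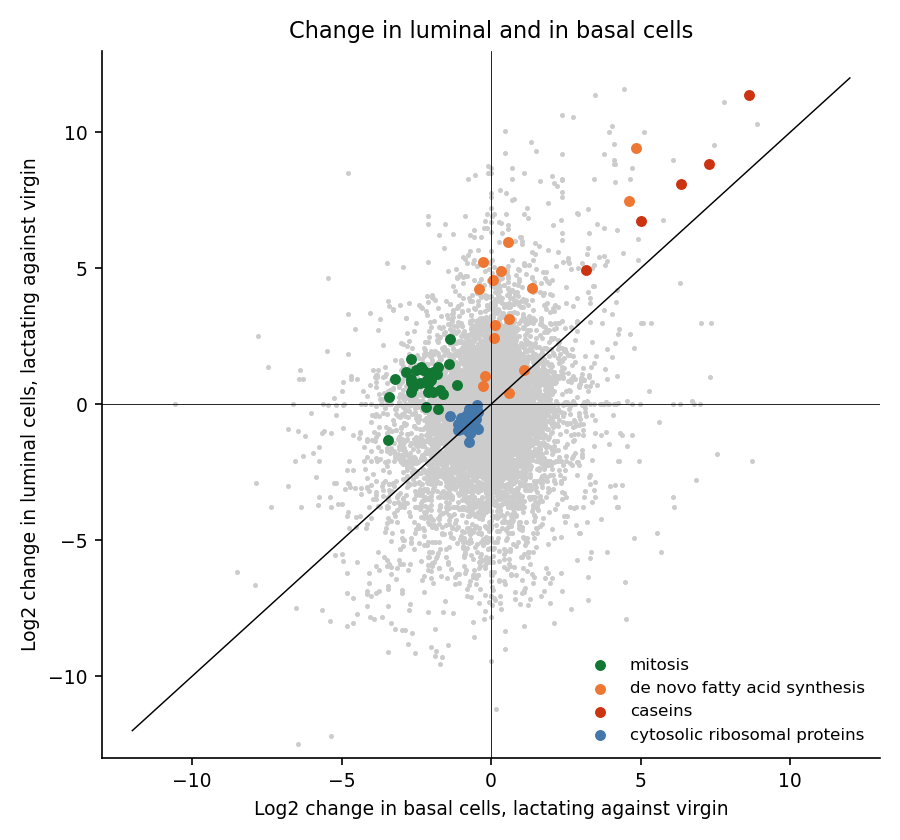
Log2 change from virgin to lactating cells in basal (horizontal axis) and luminal libraries (vertical axis) of every gene tested, in grey, with 4 gene lists in colour and a diagonal of equal change. All 30 mitosis genes lie above the diagonal, as do 14 of the 15 fatty acid synthesis genes, some of which also rose in basal cells.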

How the data were processed

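RNA sequencing counts per Entrez gene, deposited by the authors as raw counts, were used as given (12 libraries, 27179 genes, 20015386 to 24723827 counts each). Per the submitters' processing notes, the tools were CASAVA 1.8.2, Subread 1.4.4 and featureCounts, with GRCm38 and mm10 named as builds; how strand and reads with several matches were handled, and which annotation was used, is not given in the sources used here. RefSeq symbols matched 25275 IDs, and the other 1904 held 0.539% to 1.37% of a library's counts. Gene lengths deposited beside the counts were used only for length-divided shares.

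Groups were taken from the labels. edgeR 4.0.16 (R 4.3.3, limma 3.58.1) fitted 6 group means to all 12 libraries with TMM scaling, after its filter by group at a minimum count of 10, which kept 15969 genes. Quasi-likelihood F-tests with Benjamini-Hochberg adjustment over all genes were called at 0.05, for lactating against virgin luminal cells, for both steps, and for the luminal minus basal difference. The fit was also run on simulated counts with known changes in a small set of genes, and the outcome is not given here. The simulated libraries otherwise shared 1 composition. They therefore do not test the scaling under the milk protein shares seen here. Counting intervals are exact at a level of 0.95 and cover counting error only, and a group with 0 counts was set to a floor of 3 counts. DESeq2 1.42.0 was an alternative.

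The members and the 50 gene lists (960 distinct genes tested) were chosen with earlier results of these data known. Genes named are marked members of these lists, up to 2 called genes with the largest rise and 2 with the largest fall in each list, the 12 largest rises and falls overall above a count and level minimum, genes at 0 in 1 group, the 10 largest shares, the 4 largest opposite steps and the genes near Csn2. Of 249 named genes found in GENCODE exon models, 9 shared over 20% of their exon bases with another gene (Ccnd1, Fdps, Fen1, Gpat3, Krt6a, Mpc1, Pcdhac2, Slc9a4 and Trf), and their counts are uncertain.

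Replicate numbers pair no virgin with a lactating mouse. Deviations of same-numbered virgin and lactating luminal libraries correlated at -0.001 over 9096 genes. Luminal and basal deviations within a stage correlated at 0.249 (virgin), 0.355 (pregnant) and 0.161 (lactating). Pairs of groups from different stages, which share no mouse, ran from -0.277 (basal virgin with basal lactating) to 0.164 (luminal pregnant with basal virgin). These values therefore do not settle which libraries share a mouse. A fit with same-numbered libraries of a stage as a block was added for the luminal minus basal difference. Some genes that the naming rule chose are not reported here. Promoter windows came from RefSeq on GRCm38.p6.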

Additional observations from a re-analysis of the deposited data

Results flagged for a closer look

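The change from virgin to lactating cells was compared between luminal and basal cells, and the difference of the changes was called by edgeR's quasi-likelihood test for 7875 genes. Of the genes tested, 1842 (11.5%) were called in opposite directions in the 2 cell types, and 490 of these changed by at least 2-fold in both, 213 of them higher in luminal cells and 277 lower. The genes described above held 19 such members, 8 with a luminal rise and 11 with a luminal fall. Luminal and basal libraries were run in separate lanes, and the part of the lane in these differences was not tested.

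With a luminal rise and a basal fall, the difference (luminal minus basal, log2) was 4.48 for the transferrin receptor gene Tfrc. Among cell division genes, Ccnb1 gave 4.34, Mki67 3.76, Plk1 3.74 and Rrm2, of nucleotide synthesis, 3.72. The polyamine enzyme gene Odc1 gave 4.13, lactoferrin (Ltf) 3.71 and the chemokine gene Cxcl1 2.94.

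With a luminal fall and a basal rise, the hormone receptor gene Pgr gave -5.92 and its target Wnt4 -5.16. The WNT enhancer Rspo1 gave -6.10, the Hedgehog factor Gli2 -10.14, the integrin gene Itga2 -7.07 and the channel Piezo2 -7.92. Gli2 had 0 counts in lactating luminal libraries, so its fitted value depends on the prior count and is no bound. The keratin genes Krt7, Krt19 and Krt8 gave -5.26, -4.20 and -3.14, the clock repressor Per2 gave -3.16 and 9530053A07Rik -8.55.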

How the results depend on the processing

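The count of genes called between lactating and virgin luminal cells was recomputed under 22 alternatives and ranged from 8043 to 9757 when 1 of the 12 libraries was left out, against 9609. Testing against a fold of 1.5 (edgeR's glmTreat) gave 5652 calls (2500 higher, 3152 lower), 5011 for the luminal minus basal difference (2321 and 2690), and 3309 and 3331 for the first and second step, which were added after seeing the data. Scaling by library size alone moved the balance to 931 higher and 12496 lower, and to 1117 and 10263 for the difference. Under it the medians of 19 of the 26 lists with a median above 0 (of 50 lists in all) fell below 0: endoplasmic reticulum -0.28, Golgi -0.75, TCA cycle -0.16, glycolysis -0.28, iron, zinc and copper -0.43, lactose -0.65, milk fat globule -0.28, mitosis -0.51, oxidative phosphorylation -0.44, milk calcium and phosphate -0.33, amino acid transport -0.96, ATF4 response -0.99, translation factors -1.12, prolactin signalling -0.85, DNA replication -1.03, antigen presentation -1.30, epithelial chemokines -0.59, basal markers -0.72 and fibroblast markers -1.19. With milk protein counts taken out of the library sizes, the medians of antigen presentation (-0.23), fibroblast markers (-0.13) and translation factors (-0.05) were also below 0. That of fibroblast markers ran from -0.32 to 0.68 with 1 library left out. Of 237 called genes named, 8 reversed under library size alone: COX1 -0.22, COX2 -0.31, COX3 -0.35, CYTB -0.25, Ccnb2 -0.65, Ctsb -0.54, Hmgcs1 -0.06 and Krt5 -0.42. Under it a further 13 lost their call, and 13 named genes without a call gained one. The test against a fold of 1.5 ended the call of 14 named genes. With milk protein counts taken out, 1 named gene lost its call and 5 gained one. DESeq2 called 9140 genes and ended the call of 1 named gene, Cd79a (-2.08), and no named gene changed its call under relative log expression factors or under other filters. Division by gene length raised the milk protein share from 2.27% to 2.89% in virgin and from 53.4% to 68.8% in lactating cells. The replicate block, in which the number is only shared, gave 9650 calls and 7913 for the difference, and a block for each of 6 mice, with a stage and number taken as a mouse and chosen after seeing the data, gave 8358 against 7875 for the difference. The replicate block ended no call of a named gene. Leaving out 1 library ended the call of 9 named genes, each given beside its values except Krt14 (-0.33 without virgin replicate 2) and Ccnb2 (0.44 without lactating replicate 1), whose changes are not described. With 2 libraries per group, small changes of low genes may have been missed at this depth, which was not tested.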

Other observations

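The mitochondrial genome's own genes held a large share of virgin counts. COX1, a subunit of cytochrome oxidase, had 10402 and 10112, then 18286 and 20284 and then 22003 and 23296 CPM at the 3 luminal stages, with a net change of 1.14 (SE 0.16) that reversed under library size alone (-0.22). COX3 and CYTB rose by 1.01 (SE 0.14) and 1.11 (SE 0.14) and reversed likewise (-0.35 and -0.25). In basal cells COX1 stood at 9525 and 9992 CPM in virgin and 10821 and 10409 in lactating libraries.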
